A study of Rattus norvegicus with 8 samples.

Results

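The genes described here carry the antigen presentation pathway of the rat kidney: the major histocompatibility complex (MHC, called RT1 in the rat), the machinery that cuts and loads peptides onto it, and the proteasome. Members were taken from the platform's gene annotation as every gene whose symbol starts with RT1-, every alpha and beta subunit of the proteasome core (Psma and Psmb followed by a number), and Cd74, Ciita, B2m, Tap1, Tap2, Tapbp, Psme1 and Psme2. They came to 42 of the 14217 genes measured, on 61 of 31042 probe sets, and each gene was read from its brightest probe set (the highest mean over the arrays). There were 13 class I genes (B2m included), 8 class II genes (with Cd74 and Ciita), 3 peptide-loading genes, 5 immunoproteasome genes and 13 genes of the constitutive proteasome.

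The kidneys came from a study of dietary silicon (Si) in which gene arrays were used to look for genes that respond to Si deprivation. Both groups, Si deplete and Si replete, held 4 female rats of the outbred Sprague-Dawley stock at 29 weeks of age. All of them had spent 26 weeks on the same formulated low-Si feed, and only the Si replete rats had orthosilicic acid added to their drinking water, so that daily Si intake per kg of body weight was 0.17 mg in Si deplete rats and 4.1 mg in Si replete rats. Each array held RNA of 1 whole left kidney of 1 rat. In such bulk tissue, fewer cells of a type and less RNA per cell cannot be told apart. Of 8 genes listed as defining the kidney, 7 were measured, at mean log2 levels between 8.13 and 13.9.

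Class I molecules sit on nearly every nucleated cell and show cytotoxic T cells short peptides cut from the cell's own proteins. The peptides are cut by the proteasome, pumped into the endoplasmic reticulum by the Tap1-Tap2 transporter and loaded with the help of tapasin. Interferon gamma replaces the catalytic subunits of the core with inducible ones, giving the immunoproteasome. Class II molecules are found mainly on dendritic cells, macrophages and B cells, and show helper T cells peptides from material taken up from outside. Their genes are switched on by the coactivator encoded by Ciita, and in the kidney they mark above all resident mononuclear phagocytes, with tubular cells able to make them under inflammation.

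Promoter stretches are shown for some of the members that held a searched motif, because the classes differed in the letters found near their starts. Several genes with large changes between the groups are not among them. RefSeq (assembly GRCr8) named 41 of the 42 members, 17 of them RT1 genes on chromosome 20, and held a promoter window (250 bases before and 50 after the start) for 38. The first motif searched was the core of the interferon-stimulated response element, GAAANNGAAA, on either strand. It was in 3.92% of 33469 rat promoter windows, in all 3 peptide-loading genes, in 3 of 5 immunoproteasome genes (Psmb8, Psmb10 and Psme2), in 3 of 12 class I genes (B2m, RT1-N3 and RT1-S3), in 0 of 6 class II genes and in 2 of 12 constitutive genes (Psma4 and Psmb3). The sites of Psmb8, Tapbp and Psme2 lay past the gene's outermost start and are not shown. Those of the constitutive genes Psma4 and Psmb3 lay upstream and are not shown either. In the stretches below, all upstream of the gene's outermost start and written in the direction of transcription, capitals mark the motif. It reads TTTCNNTTTC when it lies on the other strand.
Psmb10, distal, chr19:50743334-50743387, minus strand: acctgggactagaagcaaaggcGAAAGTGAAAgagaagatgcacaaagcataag
Psmb10, proximal, chr19:50743293-50743331, minus strand: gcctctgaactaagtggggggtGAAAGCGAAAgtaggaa
Tap1, chr20:4668633-4668686, minus strand: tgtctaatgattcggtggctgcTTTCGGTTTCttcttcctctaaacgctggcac
Tap2, chr20:4652306-4652359, minus strand: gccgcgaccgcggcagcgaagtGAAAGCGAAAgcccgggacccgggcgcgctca
RT1-S3, chr20:2675394-2675447, plus strand: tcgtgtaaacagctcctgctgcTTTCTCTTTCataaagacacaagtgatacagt
RT1-N3, chr20:2666260-2666313, plus strand: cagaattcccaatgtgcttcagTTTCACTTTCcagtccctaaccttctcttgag
B2m, chr3:129549158-129549211, plus strand: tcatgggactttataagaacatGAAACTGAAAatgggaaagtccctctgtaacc

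The second motif was the Y box CCAAT, which is bound by the factor NF-Y and forms the last element of the class II promoter module that the Ciita protein works through. It was in 37.49% of all windows, in 6 of 6 class II genes, 10 of 12 class I genes, 9 of 12 constitutive genes, 2 of 5 immunoproteasome genes and 0 of 3 peptide-loading genes. A longer form, TGATTGG on either strand, includes the Y box. It was chosen after the stretches had been seen, so its count in class II is no test. It was in 7.06% of all windows, in 5 of the 5 class II chains with a window and in 10 of the other 33 members. These 10 were RT1-A3, RT1-CE16, RT1-CE5, RT1-M3-1, RT1-N3, RT1-S3 and RT1-T24-3 of class I, and Psmb9, Psma2 and Psma5. The sites of that longer form in the class II chains follow, with the Y box in capitals (on the strand opposite to transcription in each). Further Y boxes, not shown, lay in the windows of RT1-Db1, RT1-Bb and RT1-DMa, and that of Cd74 lay on the strand of transcription.
RT1-Da, chr20:4515344-4515392, plus strand: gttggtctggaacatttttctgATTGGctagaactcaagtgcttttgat
RT1-Db1, chr20:4560216-4560264, minus strand: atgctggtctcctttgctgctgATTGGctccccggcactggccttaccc
RT1-Ba, chr20:4576992-4577040, plus strand: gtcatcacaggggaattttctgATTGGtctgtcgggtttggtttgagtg
RT1-Bb, chr20:4604153-4604201, minus strand: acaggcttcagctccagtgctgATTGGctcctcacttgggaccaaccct
RT1-DMa, chr20:4712373-4712421, minus strand: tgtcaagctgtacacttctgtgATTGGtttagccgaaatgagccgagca

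The interferon gamma activated site TTCNNNGAA was in 8.87% of all windows and in 2 of 38 members, Psmb8 and RT1-M3-1. The cyclic AMP response element TGACGTCA was in 1.83% of all windows and in 2 members, RT1-Ba and Psmb2. A match describes letters only, and no binding was measured. Inside the class II region of chromosome 20 the genes lay in the order RT1-DOb, Tap2, Psmb8, Tap1, Psmb9 and RT1-DMb. Tap1 and Psmb9 are read away from each other, from starts 457 bases apart, and their promoter windows shared 44 bases.

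A pair of kidneys stood apart, and several results that rest on them are given with and without them. Si deplete replicate 1 lay at 64.0 on the first principal component of all probe sets (42.1% of the variance), against -25.9 to 19.2 for the others. In that kidney 2.78% of all probe sets lay over 1 log2 unit from the mean of the other 3 kidneys of the group. Si replete replicate 4 stood apart in RT1 genes: 7 of 31 RT1 probe sets (22.6%) lay over 1 log2 unit from the mean of the other Si replete kidneys, against 0.741% of all probe sets in that kidney and 0 of 18 proteasome probe sets. No other kidney had more than 1 such RT1 probe set.

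The clearest case was RT1-Bb, a class II beta chain, which has a pair of probe sets. On the dimmer one, the Si deplete kidneys had levels of 2.00, 1.90, 1.71 and 1.64 (replicates 1 to 4) and the Si replete kidneys 1.93, 1.99, 2.20 and 11.05. Si replete replicate 4 thus differed from the other Si replete kidneys by 9.02 log2 units, and no other probe set of the 31042 deviated more there. The brighter RT1-Bb probe set had its lowest level of all, 9.88, in the same kidney. RT1-A, a classical class I heavy chain, was 1.69 lower in that kidney than in its group, RT1-T24-3 was 1.26 lower, RT1-CE5 1.20 lower and RT1-CE12 1.09 lower. In the other direction, the dimmer RT1-Db1 probe set was 1.63 higher there and RT1-CE16 was 1.05 higher. As background, RT1 genes are polymorphic and near-identical to each other, and the level of a single probe set can hold signal from more than 1 of them. Genotypes were not measured, and their part in the results was not tested.

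**Figure D1:**
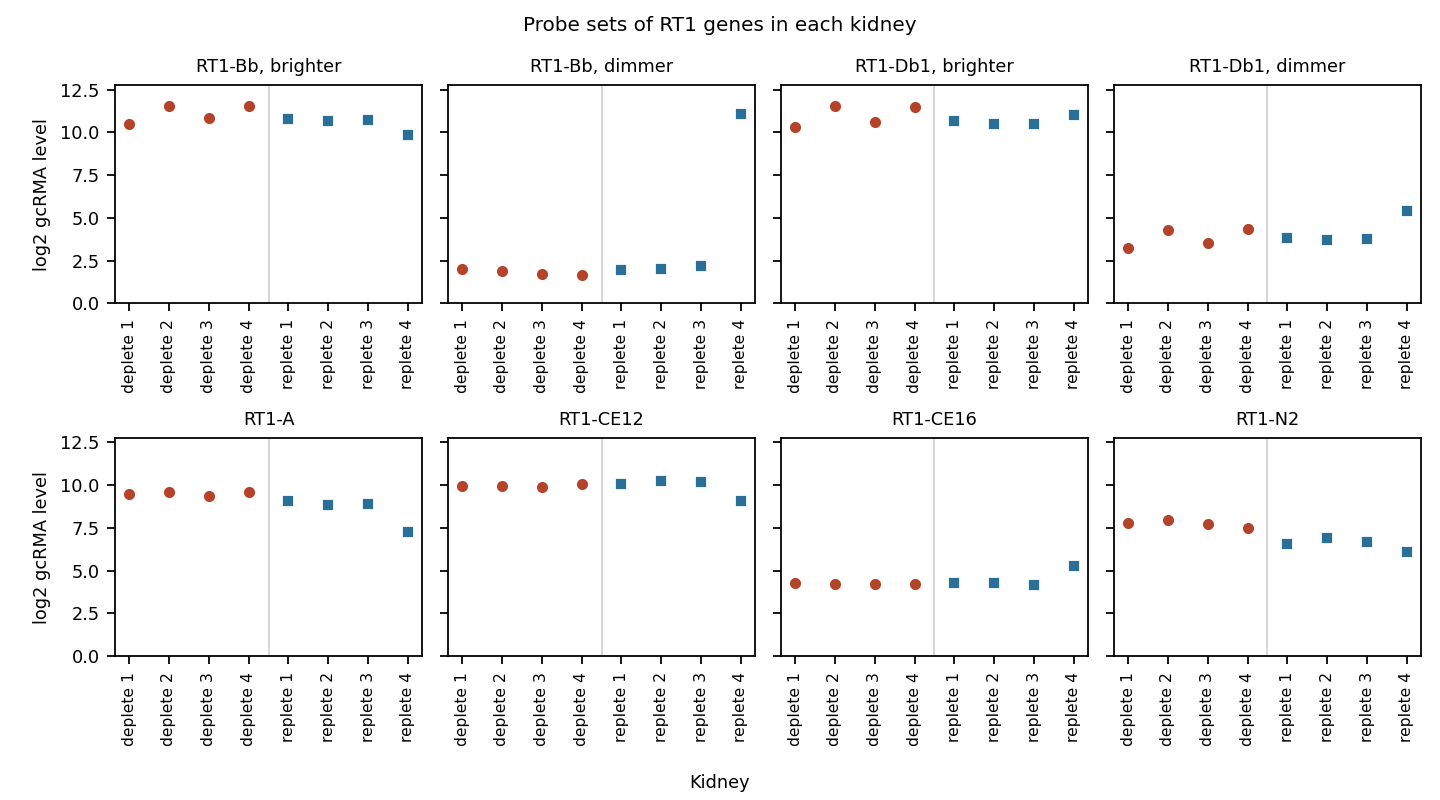
Log2 gcRMA level (y axis) of 8 RT1 probe sets in each of the 8 kidneys (x axis; circles, Si deplete; squares, Si replete). Si replete replicate 4 lies far above the others on the dimmer RT1-Bb probe set (11.05 against at most 2.20) and below them on RT1-A, while all 4 Si deplete kidneys lie above all 4 Si replete kidneys on RT1-N2.

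Across the pathway, genes of class I, peptide loading and the immunoproteasome tended to higher levels in the Si deplete kidneys, and genes of the constitutive proteasome did not. All 8 class II changes were positive, but they did not stand out from all genes by the counts used here. Of these 8 genes, 1 was higher at an unadjusted limma p under 0.05 (10.5% of all genes) and 0 had separate groups (6.45% of all genes). At an adjusted p under 0.1 (limma, Benjamini-Hochberg), 1 of the 42 members rose, against 0.169% of all genes, and 0 fell, against 0.0352%. At an unadjusted limma p under 0.05, 14 members were higher and 0 lower, where 10.5% of all genes were higher and 7.95% lower. In 12 members all Si deplete levels were above all Si replete levels, against 6.45% of all genes, and in 0 members all were below, against 5.49%. The median log2 change (Si deplete minus Si replete) was 0.34 over all members and 0.00 over all genes, and 32 members had a positive change.

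**Figure D2:**
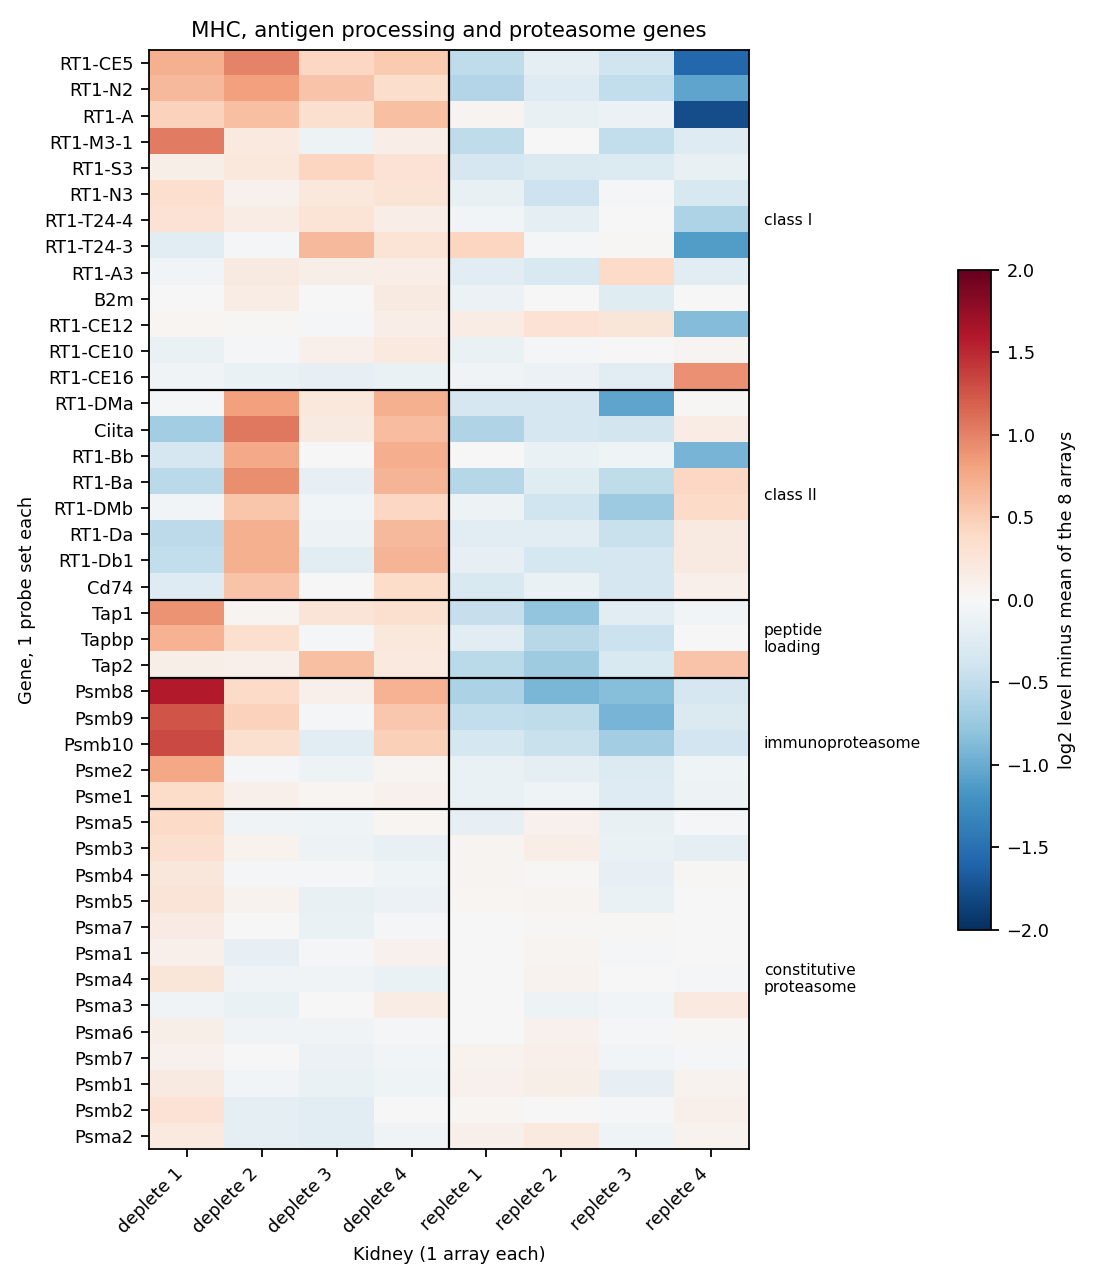
Log2 level of each of the 42 genes (rows, grouped by class) minus its mean over the 8 arrays, in each kidney (columns; the vertical line separates Si deplete from Si replete). Red marks levels above the mean and blue below; RT1-A in Si replete replicate 4 and Psmb8 in Si deplete replicate 1 lie furthest from the mean, and the constitutive rows are pale.

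**Figure D3:**
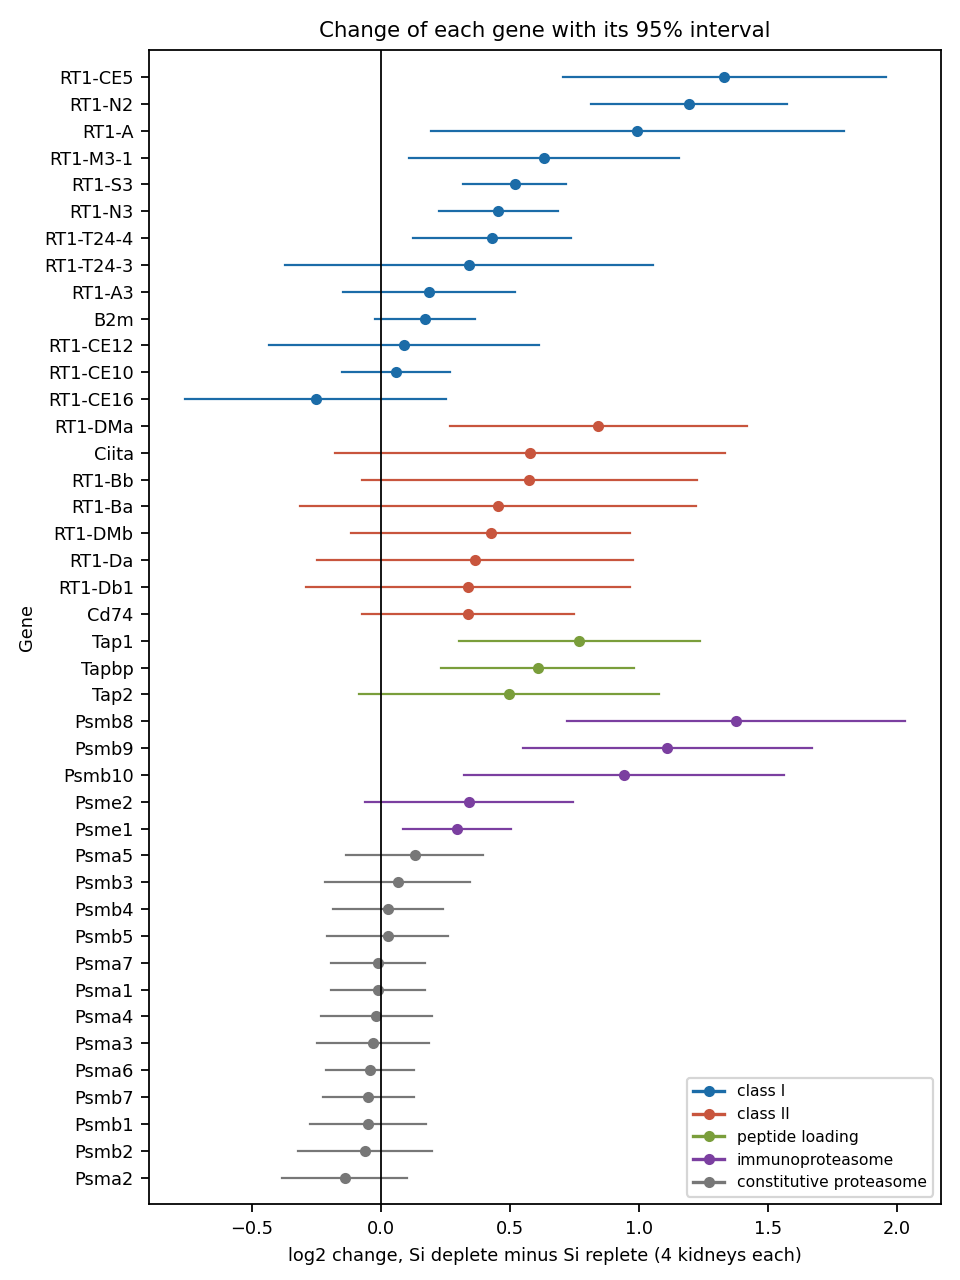
Log2 change of each gene (points; x axis, Si deplete minus Si replete, 4 kidneys each) with its 95% interval from limma (lines), by class. The 13 constitutive subunits lie between -0.14 and 0.13, and Psmb8 has the largest change at 1.38.

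Among the class I genes, 1 of 13 rose (RT1-N2) and 0 fell. The unadjusted p was under 0.05 for 7, all higher (10.5% of all genes), and the groups were fully separate in 7 (6.45% of all genes). The class median of the changes was 0.43, or 0.30 without Si replete replicate 4. RT1-N2, a nonclassical class I gene, stood at 7.81, 7.99, 7.74 and 7.52 in replicates 1 to 4 of the Si deplete group and at 6.59, 6.91, 6.67 and 6.12 in those of the Si replete group. The groups did not overlap, and the lowest level was that of Si replete replicate 4. The change was 1.19 (SE 0.17), a 2.29-fold higher level, at an adjusted p of 0.0817 (limma). Without single kidneys it ranged from 1.04 to 1.31, and its adjusted p from 0.0675 to 0.307 (limma). It was lost without each kidney but Si deplete replicate 3 and Si replete replicate 4.

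RT1-CE5, another class I heavy chain, had the widest range of the class. It measured 8.35, 8.63, 8.05 and 8.16 in the Si deplete kidneys and 7.12, 7.46, 7.23 and 6.07 in the Si replete kidneys, in replicate order as in all values that follow. All of the former lay above all of the latter, and the lowest value was that of Si replete replicate 4. The change of 1.33 (SE 0.28) did not pass (adjusted p = 0.151, limma) and was 1.03 without Si replete replicate 4. This gene had 5 probe sets, and the second brightest did pass, as 1 of 2 member probe sets to do so, where 0.113% of all probe sets passed as higher. Unlike the brightest, that probe set is of a kind that cross-matches other genes by design. On it the levels were 7.05, 7.35, 6.80 and 6.89 against 5.90, 6.22, 6.12 and 5.93, with a change of 0.98 (SE 0.13; adjusted p = 0.0817, limma). The next 2 probe sets, both of low level and also of the cross-matching kind, had changes of 0.40 and 0.48 with separate groups. The dimmest, at a mean level of 1.52, had a change of -0.02. Averaged over its probe sets, the change of the gene was 0.64.

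RT1-S3 is the rat counterpart of the mouse nonclassical gene H2-T23, whose product is read by receptors of natural killer cells. It stood at 8.41, 8.51, 8.72 and 8.58 against 7.96, 8.00, 8.02 and 8.15. The groups were separate and the spread was small, with no kidney far from its group. The change was 0.52 (SE 0.09; adjusted p = 0.118, limma), and its 4 probe sets gave changes between 0.37 and 0.58. RT1-N3, a close relative of RT1-N2 with a low level on the array, measured 4.49, 4.24, 4.37 and 4.42 against 4.00, 3.74, 4.12 and 3.84. Its groups were also separate, with a change of 0.46 (SE 0.10; adjusted p = 0.157, limma).

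Of the remaining heavy chains, RT1-A stood at 9.48, 9.61, 9.34 and 9.61 against 9.06, 8.86, 8.89 and 7.25. The Si deplete kidneys were all higher, and the change of 0.99 (SE 0.35) shrank to 0.57 without Si replete replicate 4. RT1-T24-4 was higher by 0.43 with separate groups, and by 0.30 without that kidney. RT1-M3-1, whose mouse counterpart presents formylated bacterial peptides, was higher by 0.63 with overlapping groups, and by 0.39 without Si deplete replicate 1, which had its highest level. RT1-T24-3 was higher by 0.34, or by 0.03 to 0.54 with single kidneys left out, the lowest without Si replete replicate 4. RT1-CE12 had a change of 0.09, which became -0.18 without Si replete replicate 4, and RT1-CE16 one of -0.25, which became 0.01. RT1-CE10 and RT1-A3, the latter near the bottom of the scale, had changes of 0.06 and 0.19.

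B2m, the light chain shared by all class I molecules, measured 13.26, 13.40, 13.26 and 13.43 against 13.14, 13.26, 13.01 and 13.26. The groups only just missed each other, and the change was 0.17 (SE 0.09; adjusted p = 0.385, limma). A second, dimmer probe set had a change of 0.31 (adjusted p = 0.24, limma) with overlapping groups.

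In the peptide-loading class, 0 of 3 genes passed, 2 were higher at an unadjusted p under 0.05 (10.5% of all genes), and the median change was 0.61. Tap1, which forms the peptide transporter with Tap2, measured 5.84, 4.99, 5.19 and 5.25 against 4.47, 4.14, 4.71 and 4.89. The groups did not overlap, and the change was 0.77 (SE 0.21, adjusted p = 0.19, limma), or 0.60 without Si deplete replicate 1. Tapbp, which encodes tapasin, the bridge between transporter and class I molecule, stood at 7.51, 7.15, 6.80 and 7.04 against 6.59, 6.27, 6.39 and 6.81. Its groups met at their edges, and the change was 0.61 (SE 0.17, adjusted p = 0.193, limma), or 0.48 without Si deplete replicate 1. Tap2 measured 4.94, 4.92, 5.42 and 5.02 against 4.30, 4.11, 4.52 and 5.39. Here Si replete replicate 4 lay among the Si deplete kidneys, and the change was 0.50 (SE 0.26; adjusted p = 0.398, limma), or 0.77 without it. All 3 genes had their highest Si replete level in that kidney. Other chaperones of class I loading in the endoplasmic reticulum moved less: of 5 measured genes, 0 passed and the median change was -0.01. In that list Erap1, which trims peptides, was higher by 0.28 (adjusted p = 0.318, limma) and Canx, which encodes calnexin, had a change of -0.07.

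The immunoproteasome had the largest median change of the 5 classes, 0.94, or 0.66 without Si deplete replicate 1. None of its 5 genes passed with all kidneys. At an unadjusted p under 0.05, 4 were higher (10.5% of all genes), and 4 had separate groups (6.45% of all genes). Psmb8, the inducible counterpart of Psmb5 with chymotrypsin-like activity, measured 9.40, 8.18, 7.90 and 8.50 in the Si deplete kidneys and 7.17, 6.89, 6.95 and 7.47 in the Si replete kidneys. The groups did not overlap, and Si deplete replicate 1 stood well above the rest. The change was 1.38 (SE 0.29), a 2.59-fold level (adjusted p = 0.152, limma), and 1.07 without that kidney.

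Psmb9, the inducible counterpart of Psmb6, stood at 9.94, 9.15, 8.66 and 9.23 against 8.20, 8.19, 7.76 and 8.40. The order of the Si deplete kidneys was that seen for Psmb8, and the groups were separate. The change was 1.11 (SE 0.25; adjusted p = 0.157, limma), or 0.88 without Si deplete replicate 1. Psmb10, the inducible counterpart of Psmb7, measured 7.59, 6.60, 6.04 and 6.75 against 5.92, 5.83, 5.57 and 5.89. Its lowest Si deplete value lay just above its highest Si replete value, and the change was 0.94 (SE 0.28; adjusted p = 0.209, limma), or 0.66 without Si deplete replicate 1. Leaving out Si deplete replicate 3, the lowest Si deplete kidney for all 5 genes, raised the changes of these 3 subunits to 1.57, 1.31 and 1.18. Their adjusted p were then under the threshold, at 0.0792, 0.0776 and 0.0976 (limma). The share of all genes passing in that fit was not counted.

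Psme1 and Psme2 encode the alpha and beta subunits of the interferon-inducible cap that opens the core. Psme1 measured 11.86, 11.59, 11.54 and 11.59 against 11.37, 11.40, 11.23 and 11.39. The groups were separate, with a change of 0.30 (SE 0.09, adjusted p = 0.223, limma), or 0.22 without Si deplete replicate 1. Psme2 measured 10.76, 9.94, 9.88 and 10.05 against 9.85, 9.80, 9.71 and 9.90. Si deplete replicate 1 stood far above the rest, replicate 3 lay within the Si replete range, and the change of 0.34 (SE 0.18; adjusted p = 0.401, limma) was 0.14 without Si deplete replicate 1.

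The constitutive proteasome gave values of another size. Of its 13 genes 0 passed, 0 had an unadjusted p under 0.05 and 0 had separate groups, and the median change was -0.02. The changes ran from -0.14 to 0.13, with 4 positive and 9 negative. Psmb5, the constitutive chymotrypsin-like subunit, measured 11.36, 11.17, 10.96 and 10.98 against 11.14, 11.16, 10.98 and 11.09. The groups overlapped over almost their whole range, and the change was 0.03 with a 95% interval of -0.21 to 0.26 (adjusted p = 0.929, limma). Psmb7, the constitutive trypsin-like subunit, stood at 10.90, 10.81, 10.70 and 10.76 against 10.88, 10.92, 10.76 and 10.79, and its change was -0.05 with an interval of -0.22 to 0.13 (adjusted p = 0.811, limma).

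Of the structural subunits, Psma5 measured 10.91, 10.47, 10.44 and 10.57 against 10.37, 10.61, 10.38 and 10.50. Psmb3 stood at 10.89, 10.62, 10.45 and 10.41 against 10.61, 10.70, 10.43 and 10.38. Psma2 measured 11.36, 10.99, 10.95 and 11.09 against 11.26, 11.37, 11.09 and 11.23. In each of the 3 the groups overlapped, and the changes were 0.13 (SE 0.12), 0.07 (SE 0.12) and -0.14 (SE 0.11). In 12 of the 13 constitutive genes the highest Si deplete level was that of replicate 1. The regulatory particle that unfolds substrates for the core gave a similar picture, with 0 of 20 genes passing and a median change of 0.04. Its smallest p values belonged to Psmd2, higher by 0.22, and Psmd6, with a change of -0.13. Of 6 measured genes for other activators, inhibitors and assembly factors, 0 passed, with a median change of 0.00. Among them Psmg3, an assembly chaperone, was higher by 0.43 and Psmf1, an inhibitor, by 0.11.

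The difference between inducible and constitutive subunits was tested within each kidney. The change of Psmb8 exceeded that of Psmb5 by 1.35 log2 units (SE 0.29), and the groups did not overlap (exact 2-sided permutation p = 0.0286, the smallest that 70 arrangements allow). For Psmb10 and Psmb7 the difference was 0.99 (SE 0.29), again with separate groups (exact 2-sided permutation p = 0.0286). Adjusted over these 2 pairs by Benjamini-Hochberg, both exact permutation p were 0.0286. Psmb8 and Psmb10 had separate groups on their own, so these p are not independent of that separation. Psmb9 had no counterpart here, since the probe set of Psmb6 carries a pair of symbols in the annotation. Without Si deplete replicate 1 the differences were 1.13 and 0.74.

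**Figure D4:**
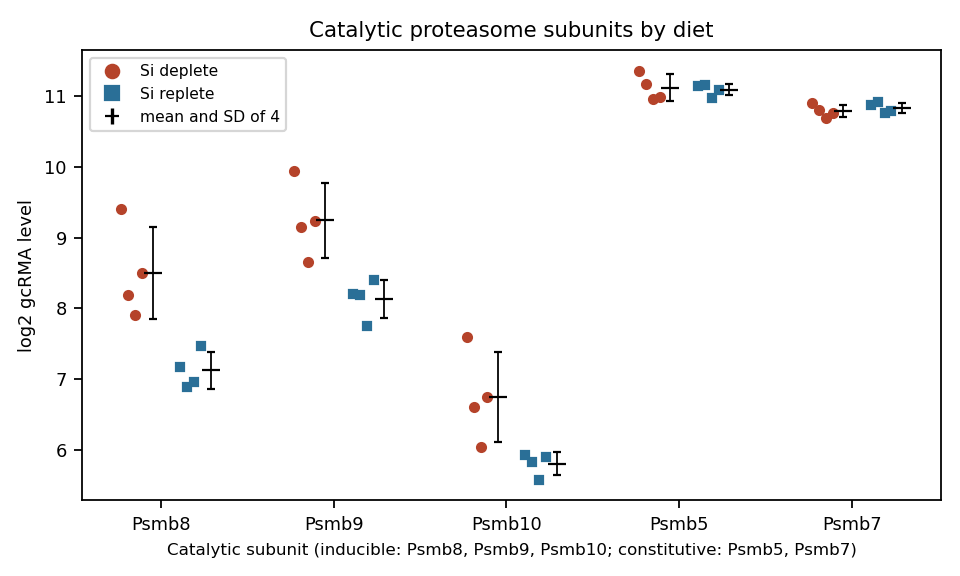
Log2 gcRMA level (y axis) of the inducible subunits Psmb8, Psmb9 and Psmb10 and the constitutive subunits Psmb5 and Psmb7 in the 4 Si deplete kidneys (circles) and 4 Si replete kidneys (squares), with mean and SD beside them. The groups are separate for the inducible subunits and overlap for the constitutive ones; levels of different genes come from different probes and are not compared.

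With all kidneys, the class II genes were higher in the Si deplete group by a median close to that of class I. Their spread between kidneys was much wider. None of the 8 passed, and 1 was higher at an unadjusted p under 0.05 (10.5% of all genes). No gene had separate groups (6.45% of all genes), although all 8 changes were positive. The median change was 0.44, with 0.66 without Si deplete replicate 1 and 0.27 without Si deplete replicate 2. Without Si replete replicate 4 it was 0.55, where the class I median was 0.30. The median pooled SD between kidneys was 0.47, against 0.27 for class I, 0.13 for the constitutive proteasome and 0.17 over all genes. RT1-DMa, which encodes a chain of the chaperone that edits class II peptides, had the smallest p and the widest range. It measured 7.60, 8.46, 7.84 and 8.34 against 7.31, 7.31, 6.58 and 7.67. Si replete replicate 4 lay just above the lowest Si deplete kidney, and the change was 0.84 (SE 0.25; adjusted p = 0.216, limma). Its partner RT1-DMb stood at 8.97, 9.58, 8.97 and 9.44 against 8.93, 8.62, 8.29 and 9.41, a change of 0.43 (SE 0.24; adjusted p = 0.434, limma), or 0.25 without Si replete replicate 3.

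The classical chains RT1-Ba, RT1-Bb, RT1-Da and RT1-Db1 had the same order of the Si deplete kidneys, with replicate 2 highest, then 4, 3 and 1. RT1-Bb, on its brighter probe set, measured 10.46, 11.56, 10.81 and 11.53 against 10.80, 10.67, 10.72 and 9.88. Si deplete replicates 2 and 4 were highest, and the change was 0.58 (SE 0.29; adjusted p = 0.383, limma), or 0.36 without Si replete replicate 4. Its alpha partner RT1-Ba was higher by 0.45, and RT1-Da and RT1-Db1, the chains of the other classical molecule, by 0.37 and 0.34, none of them past the threshold. These values leaned on single kidneys: without Si deplete replicate 1 they were 0.71, 0.60 and 0.56, and without Si deplete replicate 2 they were 0.22, 0.19 and 0.16. Without Si deplete replicate 4, RT1-Da and RT1-Db1 were higher by 0.21 and 0.17. A second RT1-Ba probe set was higher by 0.58 (adjusted p = 0.209, limma).

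Cd74, the invariant chain that escorts class II molecules to the endosome, stood at 12.37, 13.20, 12.62 and 13.00 against 12.32, 12.50, 12.29 and 12.72. The highest kidneys were again Si deplete replicates 2 and 4, and the change was 0.34 (SE 0.18; adjusted p = 0.416, limma), or 0.21 without Si deplete replicate 2. Ciita, the class II coactivator, measured 3.10, 4.86, 3.98 and 4.42 against 3.21, 3.47, 3.43 and 3.95. Levels were low on the scale and the groups overlapped, with a change of 0.58 (SE 0.33; adjusted p = 0.445, limma), 0.91 without Si deplete replicate 1 and 0.32 without Si deplete replicate 2. A second Ciita probe set had a change of 0.09, and the mean of both one of 0.33. Among 8 genes of the endosomal class II route outside the members, 0 passed and the median change was 0.23. Of these Ctsd, encoding the protease cathepsin D, was higher by 0.86 (adjusted p = 0.225, limma), and Cd1d1, which encodes a lipid-presenting molecule, was lower by 0.73 (adjusted p = 0.229, limma) with separate groups.

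The classes did not follow the same kidneys. Mean deviations of the class I genes from their mean over the 8 arrays were 0.24, 0.25, 0.22 and 0.24 in the Si deplete kidneys and -0.16, -0.13, -0.13 and -0.54 in the Si replete kidneys. For class II they were -0.37, 0.76, -0.02 and 0.60 against -0.29, -0.27, -0.48 and 0.06. For the immunoproteasome they were 1.06, 0.24, -0.05 and 0.37 against -0.35, -0.43, -0.61 and -0.24. Si deplete replicate 1 thus had the lowest class II levels of its group in 8 of 8 genes and the highest immunoproteasome levels in 5 of 5, whereas class I was even over the group. All 8 class II genes were highest in Si deplete replicate 2. Among the Si replete kidneys, replicate 4 was highest for 7 of the 8 class II genes on their brightest probe sets, with RT1-Bb as the exception. This depended on the probe set. On the second RT1-Ba probe set replicate 4 was the lowest Si replete kidney, at 9.38 against 9.62 to 9.81. On the dimmer RT1-Bb probe set it was the highest, at 11.05. Genes of a class share kidneys and, for class II, cell types and often paralogous probes, so these counts are descriptions.

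**Figure D5:**
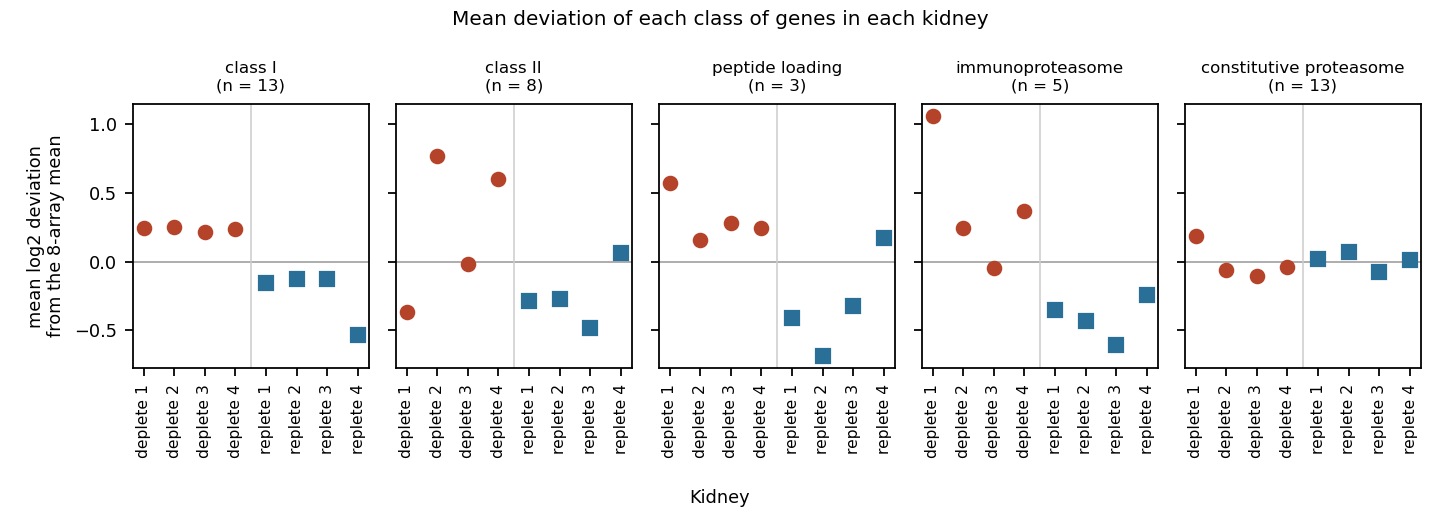
Mean log2 deviation from the 8-array mean (y axis) over the genes of each class in each kidney (x axis; circles, Si deplete; squares, Si replete). Class I is even over the Si deplete kidneys (0.22 to 0.25), class II is low in Si deplete replicate 1 (-0.37) and high in replicates 2 and 4, and the immunoproteasome is highest in Si deplete replicate 1 (1.06).

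Regulators of these genes and markers of immune cells are given beside the classes. Of 16 measured regulators 0 passed, 8 had an unadjusted p under 0.05 with a higher level (10.5% of all genes) and 1 with a lower level (7.95% of all genes), and the median change was 0.20. Irf1, the transcription factor induced by interferon gamma that binds the response element printed above, measured 9.05, 8.36, 7.74 and 8.47 against 7.24, 6.96, 7.30 and 7.32. Its groups were separate, and the order of the Si deplete kidneys was that of Psmb8, Psmb9 and Psmb10. The constitutive genes Psma2, Psma5 and Psmb2, with changes of -0.14, 0.13 and -0.06, had the same order. A link between Irf1 and these genes was not tested. The change of Irf1 was 1.20 (SE 0.24, adjusted p = 0.134, limma). Ifngr2, a chain of the interferon gamma receptor, stood at 7.98, 7.53, 7.63 and 7.26 against 6.86, 6.88, 7.05 and 7.18, with separate groups and a change of 0.60 (adjusted p = 0.172, limma). Ifng itself had a mean level of 1.38 and a change of 0.01.

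Markers of immune cells also tended higher in the Si deplete kidneys. Of 16 myeloid markers 0 passed and 7 were higher at an unadjusted p under 0.05, where 10.5% of all genes were, with a median change of 0.58. Their summed level, as log2, ranged from 12.3 to 13.0 in the Si deplete and from 11.7 to 12.6 in the Si replete kidneys. By mean deviation they were highest in Si deplete replicates 2 (0.62) and 4 (0.47), as class II was, while replicates 1 and 3 stood at 0.15 and -0.10. Of 14 T and natural killer cell markers 0 passed, 6 were higher at that p and the median change was 0.51. Their summed level ran from 7.42 to 8.65 against 7.27 to 7.61, 9 of the 14 had a mean level under 4, and they were highest in Si deplete replicates 1 (0.59) and 4 (0.57). The genes named next had the smallest p of these lists. Ptprc, the common leukocyte antigen, was higher by 0.77 (adjusted p = 0.211, limma) and the lysosomal gene Laptm5 by 0.98 (adjusted p = 0.219, limma). The T cell kinase Lck was higher by 1.27 (adjusted p = 0.18, limma) and Cd3e of the T cell receptor complex by 0.98 (adjusted p = 0.226, limma). Of the myeloid changes 15 were positive and 1 negative. Lyz2 and Mrc1 were higher by 0.33 and 0.38. Itgam and Cd163, both at mean levels under 4, had changes of 0.04 and -0.03.

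The other marker lists were smaller or moved less. Of 8 dendritic cell markers 5 were measured, 3 of them with a mean level under 4; the median change was 0.33, and the summed level ran from 6.30 to 7.01 against 5.97 to 6.46. In this list Itgax and Flt3 were higher by 0.62 and 0.27. All 5 measured B cell markers, Cd22 and Ms4a1 among them, had a mean level under 4, with a median change of 0.24 and a summed level of 4.63 to 5.10 against 4.51 to 4.65. Endothelial markers had a median change of -0.01 over 7 genes and a summed level of 11.6 to 12.3 against 12.0 to 12.2; Vwf was lower by 1.02 (adjusted p = 0.226, limma) and Egfl7 higher by 0.26 (adjusted p = 0.348, limma). Proximal tubule markers had a median change of -0.15 over 8 genes, and the summed level was 14.32 to 15.04 against 14.87 to 15.08. By mean deviation the tubule markers were lowest in Si deplete replicate 1. They stood at -0.56, 0.28, 0.19 and -0.15 in the Si deplete and at -0.06, 0.07, -0.14 and 0.36 in the Si replete kidneys. The part of cell content in the class I, class II and immunoproteasome values was not tested.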

How the data were processed

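Gene expression was measured on Affymetrix Rat Genome arrays, 1 whole left kidney per array, 4 Si deplete and 4 Si replete. The deposited values are log2 levels, which the authors made by gcRMA (robust multiarray averaging with background from probe sequence) with summarization by m-estimators, under GCRMA 2.36.0 according to the submitters' processing notes. These values were taken as they stand, and scanner intensities were not used here. Low levels are compressed, and fold changes of dim probe sets are understated. The number of arrays limits the precision, and array medians lay between 3.80 and 3.92.

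The file held 31099 probe sets, of which 57 are controls. The other 31042 were tested in limma 3.58.1 under R 4.3.3 (lmFit, eBayes). Changes are Si deplete minus Si replete, p-values were adjusted over all probe sets by Benjamini-Hochberg, and the threshold was 0.1. No level filter was used. The annotation gave 20826 probe sets 1 symbol, 436 several and 9780 none. RT1 probe sets with several symbols (6) and that of Psmb6 were left out, and the planned comparison of Psmb9 with Psmb6 was therefore not made. Arrays correlated at 0.989 or more within groups, the highest correlation being 0.996, and each was counted as 1 sample. The p-values measure the spread between these rats. Single values were compared by exact 2-sided permutation over 70 arrangements. The procedure was tested on simulated data with 200 of 31042 probe sets changed, where 206 were called, 26 of them falsely. The simulated noise was independent between probe sets and held no outlying kidney, so these features of the real arrays were not covered.

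The members and lists were chosen with earlier results of these data known. Values in every kidney were given for the immunoproteasome genes and their counterparts, B2m, Tap1, Tap2, Tapbp, Cd74, Ciita, any member that passed, up to 4 genes with the smallest p of class I and class II, the widest-ranging gene of each, and the 2 constitutive genes with the smallest p in each direction. Of other lists up to 2 genes with the smallest p were named. RT1-A, the RT1-Bb probe sets, Ifng and others outside this rule were chosen after their values were seen. Alternatives were array weights, a robust prior, an intensity trend, a minimum mean level of 4, quantile normalization, array medians subtracted, Storey's q-value (lambda 0.5), a threshold of 0.05, a replicate block, averaging the probe sets of each gene, leaving out probe sets that cross-match by design (10 of 31 RT1 probe sets), and each kidney left out.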

Additional observations from a re-analysis of the deposited data

Results flagged for a closer look

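In 13 of 122 sets of 4 values (each member probe set in each group), the gap between 1 kidney and its nearest neighbour, as a share of the whole range, was over the Dixon limit of 0.829. Chance alone passes about 1 in 20 such groups, and the probe sets share kidneys.

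Si replete replicate 4 was the distant kidney in 6 of them, all RT1 probe sets. The gap was 0.971 of the range on the dimmer RT1-Bb probe set and 0.860 on the brighter one, where levels of 11.05 and 9.88 stood against 1.93 to 2.20 and 10.67 to 10.80. It was 0.926 on the dimmer RT1-Db1 probe set (5.39 against 3.69 to 3.81), 0.886 on RT1-A (7.25 against 8.86 to 9.06), 0.870 on RT1-CE12 (9.07 against 10.08 to 10.23) and 0.859 on RT1-CE16 (5.29 against 4.14 to 4.31).

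Si deplete replicate 1 was the distant kidney in 5. The gap was 0.860 on the dimmer B2m probe set, where it was lowest (11.26 against 11.56 to 11.61). It was highest on Psmb4 (0.854), Psma6 (0.846), Psma4 (0.830) and Psme1 (0.829), with Psme1 at 11.86 against 11.54 to 11.59.

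Si replete replicate 3 was distant on Psmb4 (0.863), at 12.13 against 12.31 to 12.34, and on the dim RT1-A3 (0.857), at 3.31 against 2.63 to 2.72.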

How the results depend on the processing

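Over 20 alternatives and 31 single genes, 588 values kept their direction and side of the threshold, 7 newly passed it, 8 no longer did and 11 turned in sign. The count of members that rose was 2 with array weights, with a minimum mean level of 4 and with Storey's q-value (RT1-N2 and RT1-S3), 0 at a threshold of 0.05, and 0 to 5 with single kidneys left out. It was 5 without Si deplete replicate 3 (Psmb8, Psmb9, Psmb10, RT1-N2 and RT1-S3), 1 without Si replete replicate 4 and 0 without each other kidney. Si deplete replicate 3 was the lowest of its group for all 5 immunoproteasome genes, so leaving it out raises their changes. How many of all genes passed in each alternative was not counted, so these counts have no background beside them. Leaving out Si deplete replicate 1 and Si replete replicate 4 together was chosen after seeing the data. It gave 0 members that rose, and 22 with separate groups higher and 3 lower (10.6% and 9.71% of all genes with these kidneys). The class I median was then 0.27 and the class II median 0.72. Subunit differences were 1.24 (Psmb8 and Psmb5) and 0.79 (Psmb10 and Psmb7). Each had an exact permutation p of 0.1, the smallest that 3 kidneys against 3 allow.

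With single kidneys left out, members with separate groups numbered 12 to 17 higher and 0 to 2 lower, where 7.52% to 10.5% and 6.74% to 8.93% of all genes were separate. Over the same fits the medians ranged from 0.30 to 0.51 (class I), 0.27 to 0.66 (class II), 0.53 to 0.77 (peptide loading), 0.66 to 1.18 (immunoproteasome) and -0.06 to 0.00 (constitutive), and the subunit differences from 1.13 to 1.49 and from 0.74 to 1.19, the latter with an exact permutation p of up to 0.0571.

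Signs turned for small changes. Psmb5 was at -0.015 with array weights, -0.030 with array medians subtracted, -0.053 to 0.080 with single kidneys left out and -0.053 without both. Psmb7 was at 0.010 under quantile normalization. RT1-CE12 ranged from -0.18 to 0.20 and RT1-CE16 from -0.37 to 0.0095 with single kidneys left out, and RT1-CE12 was at -0.18 without both. RT1-Bb was at -0.95 as the mean of its probe sets, and RT1-Db1 at -0.29 with cross-matching probe sets left out, which leaves its dimmer one. Subtracting array medians moved every change by -0.057. As means of all their probe sets, RT1-CE5, Tap1, Ciita, RT1-Ba, Psme1 and RT1-Db1 had changes of 0.64, 0.40, 0.33, 0.23, 0.12 and 0.02.

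Under a replicate block 1 member rose, RT1-N2 (adjusted p = 0.0756, limma), and the block changed no other call. The paper states that rats were killed singly, with 1 of each group on a given day. The sample labels give no day, so pairs by day could not be formed. Whether replicate numbers mark such days is not known, and they were not read as pairs. Deviations of same-numbered kidneys correlated at 0.088, 0.090, 0.079 and -0.088, with the own number best for 2 of 4. Signal near the array background limits RT1-A3 and Ciita, whose means were under 4.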
